A study of Homo sapiens with 36 samples.

Results

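RAB GTPases are small GTP-binding proteins of the RAS superfamily, here taken as the genes whose symbol is RAB, a number and an optional letter, leaving out RAB13, RAB25 and RAB-interacting genes. On Affymetrix HG-U133 Plus 2.0 arrays, 55 such genes were found among 19775 genes with a probe set that carries 1 symbol, and 136 of 54593 probe sets belonged to them. A further 6 symbols of this form, RAB19, RAB34, RAB41, RAB44, RAB6C and RAB6D, had no such probe set and were not analysed here. Each gene was read from its brightest probe set (by the mean of the 36 arrays), and 53 of the 55 were tested. RAB6A and RAB40A were not, because none of their group means reached 24.4 intensity units, the median of all deposited values. The probe set of RAB6A used here read 0.7 to 12.4 (median 5.35) in the 18 pseudopod arrays and 3.8 to 14.8 (median 7.5) in the 18 cell body arrays. Brighter probe sets that hold RAB6A carry further symbols and were not used. RAB40A read 0.7 to 9.2 (median 2.5) in the 18 pseudopod arrays and 0.5 to 6.5 (median 1.8) in the 18 cell body arrays.

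The series holds 36 arrays of 6 human cancer cell lines, each split into a pseudopod (PS) and a cell body (CB) fraction with 3 arrays. The lines come from glioblastoma (U87 and U251), fibrosarcoma (HT1080), prostate cancer (DU145) and breast cancer (MDA231). MDA435 was long used as a breast cancer line and is known to derive from a melanoma. Cells of every line spent 24 hours on a porous filter, and what had grown through to its underside (pseudopods) and what stayed on top (cell bodies) was scraped off apart, so both fractions of a group pair come from the same line. U87, U251 and HT1080 were kept in DMEM and the other lines in RPMI-1640, so medium and line cannot be told apart. The labels number the arrays of a group 1 to 3 and do not say whether they came from separate cultures. A p-value then measures the spread between these arrays, which may be technical, and each line stands for itself.

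RAB proteins switch between a GDP-bound form and a GTP-bound form that sits on membranes through a prenyl tail. Exchange factors load them with GTP, GTPase-activating proteins of the TBC family turn them off, and effectors bound by the GTP form tether, move or fuse vesicles. Each RAB marks its own compartments, so that the family as a whole covers traffic between the ER, Golgi, endosomes, lysosomes and plasma membrane. Migrating cells use such traffic to bring integrins and membrane to protrusions. RAB13, which is not counted here, is a textbook case of an mRNA carried to the protrusions of migrating cells, and it was 0.69 ± 0.09 log2 units (SE) higher in pseudopods than in cell bodies.

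All 36 arrays had been brought to a common mean, and array medians were 18.2 to 27.4 in PS and 22.2 to 30.6 in CB. A level is therefore a share of an array's signal, and in scraped fractions a transcript that is enriched cannot be told apart from others that are depleted. Of 8 RNAs on a list of nuclear-retained RNAs, 4, GAS5 among them, were lower in PS and 1, OIP5-AS1, was higher. The summed intensity of the 8 was 2085 to 6485 in PS and 3656 to 7967 in CB. Where each RNA of that list lies in these cells was not tested. MALAT1, a nuclear RNA, changed by -0.69 ± 0.14 log2 units. Of the 6 blood cell markers measured, summed at 93.9 to 190.6 in PS and 122 to 310.2 in CB, 1 of the 5 tested was lower and none was higher. Epithelial markers (15 tested) had 2 higher and 2 lower, melanocytic markers (9) 0 and 3, and glial and neural markers (14) 0 and 7. The last summed to 13516 to 21870 in U251 but 419 to 1508 in U87. In 4 arrays CDH1, the epithelial cadherin, departed from the others of the line: PS 3 and CB 2 of MDA231, which were high, and PS 3 and CB 1 of MDA435, which were low. In DU145, CDH1 read 319, 1489 and 1350 in the pseudopod arrays, against 2237, 2020 and 857 in the cell body arrays. EPCAM read 567, 2358 and 2096 in the DU145 pseudopod arrays, against 3041, 3032 and 1229 in the cell body arrays. PS 1 was the lowest of the 6 DU145 arrays in both genes. In MDA231, CDH1 read 4.5, 13.7 and 1299 in the pseudopod arrays, against 8.2, 1778 and 2.2 in the cell body arrays. For MDA435 it read 2073, 922 and 33.2 in the pseudopod arrays, against 32.8, 1044 and 2463 in the cell body arrays. Counts of called RAB genes, averaged and within MDA231 and MDA435, are given below with and without the arrays that depart. Other results from these lines use all arrays unless stated. The part of these measures in the RAB results was not tested.

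**Figure D1:**
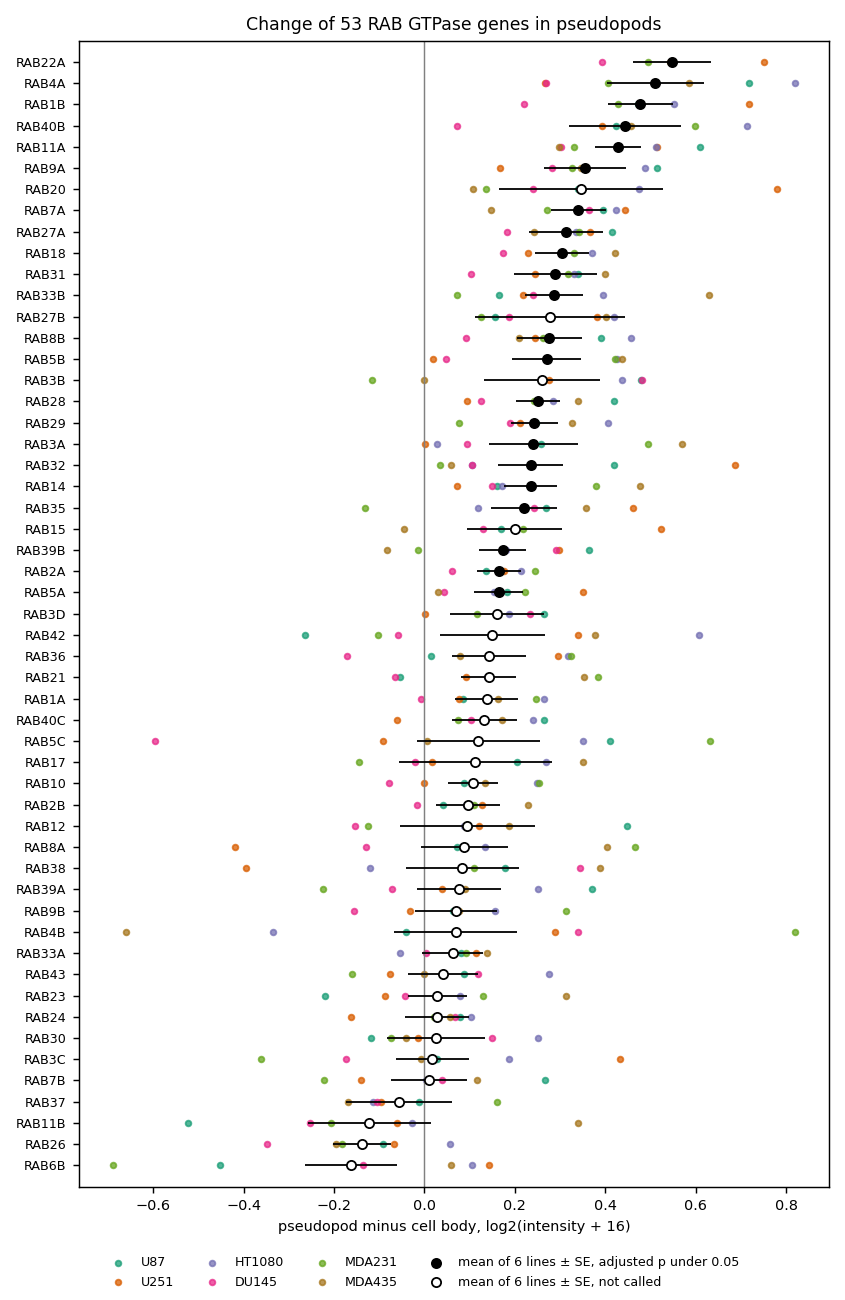
Pseudopod minus cell body difference of the 53 RAB genes tested, in log2(intensity + 16) on the horizontal axis, with genes ordered by their mean. Coloured points are the 6 lines, black or open circles the mean of the lines with its standard error; 49 means lie above 0 and 4 below.

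RAB genes leaned towards the pseudopods, and none was lower there by the test. Averaged over the 6 lines, 22 of 53 rose in PS at an adjusted p under 0.05, against 29.5% of all 15399 genes tested. One of the 22, RAB3A, passed the filter on dim genes through 1 PS group alone and so had to be high there. None of the 53 fell in limma, against 20.8% of all genes, and 1, RAB26, was lower at an unadjusted p under 0.05 (22.8% of all genes). The median difference was 0.16 log2 units for the RAB genes and 0.05 for all genes, and the RAB genes ranged between -0.16 and 0.55. Rises were therefore small, at most 1.46-fold on this scale. Of the 31 RAB genes that did not pass, 27 had a mean above 0. A total of 23 RAB genes had a higher mean in PS in 6 of 6 lines, against 27.8% of all genes, and 0 had a lower mean in all lines, against 17.1%.

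Without the 4 arrays that depart in CDH1, 25 of 53 RAB genes rose and 0 fell, against 30.8% and 21.7% of all genes. Without MDA231 and MDA435 altogether 23 of 52 rose and 0 fell, against 30.8% and 20.7%. Without PS array 1 of DU145, left out after the data were seen, 22 rose and 1 (RAB26) fell, against 28.7% and 20.6%. With the 6 lines as the units in place of the arrays, 22 were higher and 0 lower, against 29% and 19.3% of all genes. Both fits called 18 of these; RAB3A, RAB5A, RAB32 and RAB39B passed over arrays only, and RAB3B, RAB3D, RAB20 and RAB27B over lines only. Setting all array medians equal moved the median of all genes to 0.14 and that of the RAB genes to 0.26, with 32 RAB genes higher and 0 lower. Over all genes 41.1% were then higher and 16.4% lower, so the share of all genes called higher was also larger than the 29.5% without that scaling. Over all genes, brighter probe sets were called higher more often, a split added after the data were seen. Among genes with a mean of at least 100 intensity units, 42.5% of all were higher and 22.1% lower, against 20 and 0 of 39 RAB genes. The median difference at that level was 0.23 log2 units for the RAB genes and 0.14 for all genes. Under that level, 10% of all genes were higher and 18.8% lower, against 2 and 0 of 14 RAB genes. The medians were then 0.07 for the RAB genes and -0.03 for all genes.

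Early endosome and endocytic RABs included the largest and second largest means, with 5 of 10 higher and 0 lower (median 0.22). For rises that is 50%, against 29.5% of all genes. RAB22A, which acts at early endosomes and in the recycling of cargo taken up without clathrin, was higher in PS in every line. In U87, RAB22A read 1265, 1222 and 955 in the pseudopod arrays, against 702, 811 and 812 in the cell body arrays. For U251, RAB22A read 617, 651 and 653 in the pseudopod arrays, against 354, 420.3 and 352 in the cell body arrays. HT1080 gave RAB22A values of 740.4, 686 and 877 in the pseudopod arrays, against 594, 491 and 473 in the cell body arrays. In these 3 lines every PS array lay above every CB array. In DU145, RAB22A read 838, 774 and 679.5 in the pseudopod arrays, against 502, 509 and 745 in the cell body arrays. MDA231 gave RAB22A values of 1468, 1518 and 817 in the pseudopod arrays, against 939, 677 and 1008 in the cell body arrays. For MDA435, RAB22A read 678, 1102 and 1118 in the pseudopod arrays, against 728, 701 and 516 in the cell body arrays. The fractions overlapped in these 3 lines, each time through 1 low PS array or 1 high CB array, and the means kept the same order. The averaged difference was 0.55 ± 0.09 log2 units (SE), or 1.46-fold (adjusted p = 4.65e-06; with lines as units 0.000246). All 3 tested probe sets of RAB22A were higher.

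RAB4A, which sends cargo from early endosomes straight back to the plasma membrane, also rose. In U87, RAB4A read 298, 455 and 314 in the pseudopod arrays, against 202, 140.0 and 306 in the cell body arrays. For U251, RAB4A read 1136, 1033 and 1042 in the pseudopod arrays, against 785, 941 and 940.4 in the cell body arrays. HT1080 gave RAB4A values of 656, 645 and 572 in the pseudopod arrays, against 284, 387 and 377 in the cell body arrays. U87 overlapped through 1 CB array at 306, and U251 and HT1080 did not overlap. In DU145, RAB4A read 565, 487 and 501 in the pseudopod arrays, against 423, 449 and 408 in the cell body arrays. MDA231 gave RAB4A values of 762, 528 and 728 in the pseudopod arrays, against 503, 585 and 417 in the cell body arrays. For MDA435, RAB4A read 555, 492 and 257 in the pseudopod arrays, against 167, 282 and 416 in the cell body arrays. DU145 did not overlap, while MDA231 and MDA435 did, and MDA435 ranged widely in both fractions. The lowest MDA435 arrays of RAB4A, PS 3 at 257 and CB 1 at 167, are those low in CDH1. The averaged difference was 0.51 ± 0.11 log2 units, or 1.43-fold (adjusted p = 0.000193; with lines as units 0.00149), and its 3 tested probe sets were all higher.

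**Figure D2:**
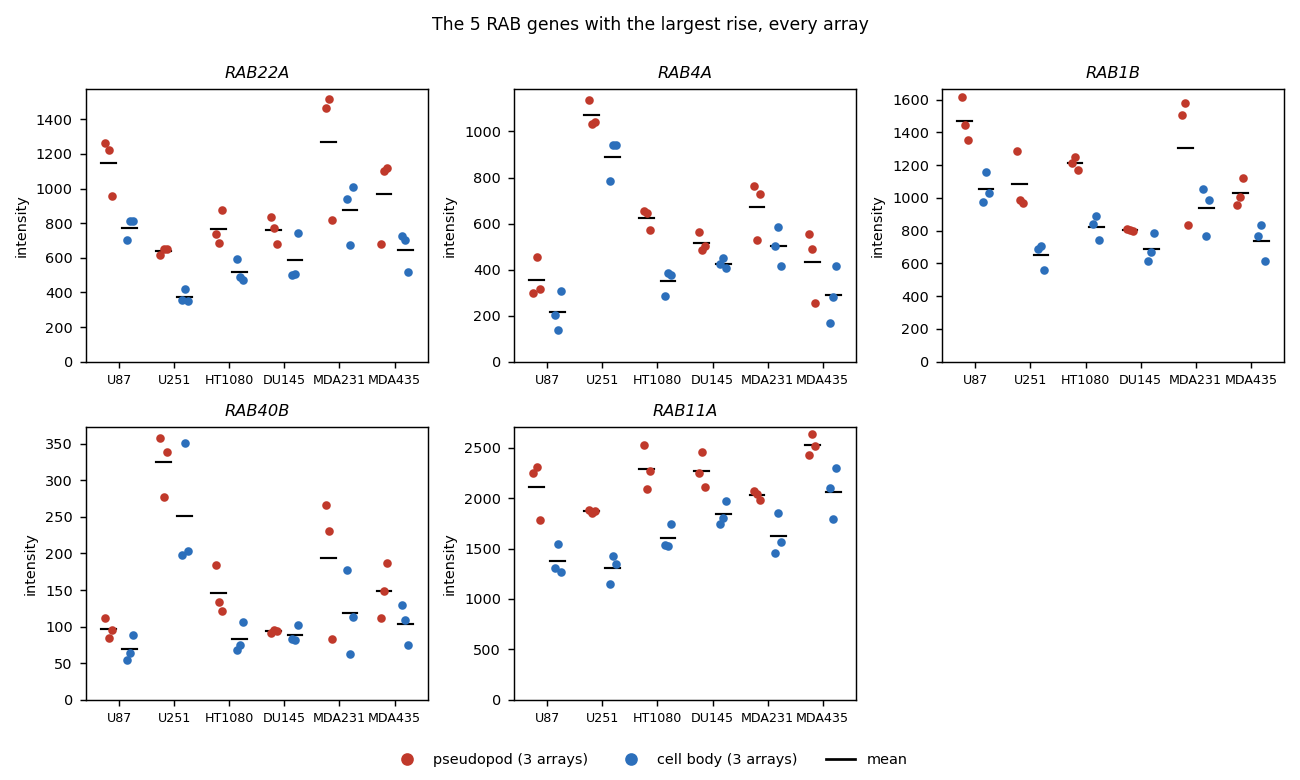
Intensity (linear axis from 0) of the 5 RAB genes with the largest averaged rise in every array, PS left of CB within each line; bars mark the mean of 3 arrays. RAB11A shows no overlap between PS and CB in any of the 6 lines, and RAB1B none in 5.

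The other endocytic RABs had smaller differences. RAB31, a RAB of the trans-Golgi to endosome route, rose by 0.29 ± 0.09 log2 units (adjusted p = 0.00946), with overlap in every line. Its other 2 probe sets gave 0.55 ± 0.11 and 0.63 ± 0.08. RAB5B and RAB5A, isoforms of the RAB that defines early endosomes, rose by 0.27 ± 0.08 and 0.16 ± 0.05 log2 units (adjusted p = 0.00377 and 0.0131). RAB5A kept no call with lines as units (adjusted p = 0.0563), with quantile normalization (0.169), without U251 (0.102), with the replicate number as a block (0.0549) or with the mean of its probe sets (0.0539). The third isoform, RAB5C, had 0.12 ± 0.14 and its lines ran from -0.59 in DU145 to 0.63 in MDA231, while its second probe set was called higher at 0.17 ± 0.06. RAB20, an endosome and phagosome RAB, had 0.35 ± 0.18 over arrays (adjusted p = 0.116), with a higher mean in all 6 lines. RAB21, an integrin-binding RAB, had 0.14 ± 0.06 (adjusted p = 0.0525), and 2 further probe sets of it were called higher at 0.26 ± 0.07 and 0.36 ± 0.08. RAB17, an epithelial RAB, had 0.11 ± 0.17. RAB4B, the near relative of RAB4A, had 0.07 ± 0.14, with lines from -0.66 in MDA435 to 0.82 in MDA231, on a probe set with a mean of 25.1 units.

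Among the recycling and plasma membrane RABs, 4 of 9 (44.4%) rose and 0 fell (median 0.20), against 29.5% of all genes called higher. That share is near the 42.5% of genes with a mean of at least 100 units. RAB11A, the RAB of the recycling endosome, had the lowest adjusted p of the family. In U87, RAB11A read 2251, 2305 and 1788 in the pseudopod arrays, against 1308, 1547 and 1272 in the cell body arrays. For U251, RAB11A read 1883, 1854 and 1873 in the pseudopod arrays, against 1152, 1427 and 1348 in the cell body arrays. HT1080 gave RAB11A values of 2523, 2089 and 2266 in the pseudopod arrays, against 1531, 1527 and 1748 in the cell body arrays. Every PS array of these lines lay above every CB array of the same line. In DU145, RAB11A read 2244, 2461 and 2111 in the pseudopod arrays, against 1743, 1806 and 1968 in the cell body arrays. MDA231 gave RAB11A values of 2068, 2044 and 1983 in the pseudopod arrays, against 1452, 1848 and 1563 in the cell body arrays. For MDA435, RAB11A read 2423, 2633 and 2520.0 in the pseudopod arrays, against 2101, 1789 and 2297 in the cell body arrays. PS and CB did not overlap in these lines either, so RAB11A was the one RAB gene without overlap in 6 of 6 lines. The averaged difference was 0.43 ± 0.05 log2 units, or 1.34-fold (adjusted p = 4.91e-08; with lines as units 0.000881). Its 2 other probe sets were called higher at 0.18 ± 0.07 and 0.38 ± 0.05.

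RAB8B, of the exocytic route to the plasma membrane, rose by 0.28 ± 0.07 log2 units (adjusted p = 0.00197), and RAB14, between Golgi and endosomes, by 0.23 ± 0.06 (adjusted p = 0.00149). RAB14 lost its call without MDA231 and MDA435 (0.14 log2 units, adjusted p = 0.0685). RAB35, of fast endocytic recycling, rose by 0.22 ± 0.07 (adjusted p = 0.0128), with a difference of -0.13 in MDA231, and lost its call without U251 (adjusted p = 0.0866). The 5 members of this group that did not pass were RAB15 at 0.20 ± 0.10, RAB10 at 0.11 ± 0.06, RAB12 at 0.09 ± 0.15, RAB8A at 0.09 ± 0.10 and RAB11B at -0.12 ± 0.14. A second probe set of RAB15 was called higher at 0.52 ± 0.12. RAB8A ran from -0.42 in U251 to 0.47 in MDA231.

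ER and Golgi RABs showed 4 of 11 higher and 0 lower (median 0.14). For rises that is 36.4%, near the 29.5% of all genes called higher. It is below the 42.5% of genes with a mean of at least 100 units. RAB1B, which with RAB1A drives traffic out of the ER, had the largest rise of the ER and Golgi RABs. Its only probe set carries a suffix for probes shared between transcripts, so RAB1B could not be tested without such probe sets. In U87, RAB1B read 1613, 1442 and 1355 in the pseudopod arrays, against 974, 1161 and 1033 in the cell body arrays. For U251, RAB1B read 1289, 989.9 and 971 in the pseudopod arrays, against 687, 705 and 559 in the cell body arrays. HT1080 gave RAB1B values of 1216, 1249 and 1170.4 in the pseudopod arrays, against 840.0, 889 and 741 in the cell body arrays. None of these lines overlapped. In DU145, RAB1B read 810.2, 803 and 798 in the pseudopod arrays, against 616, 671 and 785 in the cell body arrays. MDA231 gave RAB1B values of 1505, 1581 and 834 in the pseudopod arrays, against 1057, 769 and 990.3 in the cell body arrays. For MDA435, RAB1B read 956, 1006 and 1119.6 in the pseudopod arrays, against 767, 835 and 613 in the cell body arrays. MDA231 was the one line with overlap, through a PS array at 834 that is also the one high in CDH1. The averaged difference was 0.48 ± 0.07 log2 units, or 1.39-fold (adjusted p = 2.32e-06; with lines as units 0.000757).

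RAB18, a RAB of the ER and lipid droplets, rose by 0.30 ± 0.06 log2 units (adjusted p = 7.38e-05) on a probe set with a mean of 1276 units, and 2 more of its probe sets rose by 0.36 ± 0.05 and 0.24 ± 0.05. Of its 3 dim probe sets, 2 were lower at -0.56 ± 0.07 and -0.54 ± 0.09. The mean over all its probe sets gave -0.018 (adjusted p = 0.727), and without shared probe sets it had 0.08 (adjusted p = 0.421). RAB33B, a Golgi RAB that also binds an autophagy factor, rose by 0.29 ± 0.06 (adjusted p = 0.000377), and RAB2A, of the ER to Golgi route, by 0.17 ± 0.05 (adjusted p = 0.0052). RAB1A had 0.14 ± 0.07 (adjusted p = 0.104), and of its other 2 tested probe sets 1 was called higher at 0.29 ± 0.08. RAB2B had 0.10 ± 0.07. RAB36, RAB33A, RAB43 and RAB30 had 0.14 ± 0.08, 0.06 ± 0.07, 0.04 ± 0.08 and 0.03 ± 0.11. RAB6B, the neuronal form of a Golgi RAB, had the lowest mean of the family at -0.16 ± 0.10 (adjusted p = 0.193), with 3 lines above 0 and 3 below. MDA231 and U87 were lowest for it, and 1 of its other 2 tested probe sets was called higher at 0.23 ± 0.06.

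Late endosome, lysosome and lysosome-related organelle RABs showed 5 of 11 (45.5%) higher and 0 lower (median 0.15), against 29.5% of all genes called higher. That share too is near the 42.5% of genes with a mean of at least 100 units. RAB9A, which returns receptors from late endosomes to the Golgi, rose by 0.35 ± 0.09 log2 units (adjusted p = 0.00167). RAB7A, the RAB of late endosomes, rose by 0.34 ± 0.06 (adjusted p = 3.15e-05), without overlap in 4 lines. The probe set used for RAB7A carries a suffix for probes shared between transcripts; without such probe sets a dimmer one took its place and gave -0.041 (adjusted p = 0.706). RAB29, of the trans-Golgi and lysosomes, rose by 0.24 ± 0.05 (adjusted p = 0.000252). RAB32, of melanosomes and mitochondria, rose by 0.23 ± 0.07 (adjusted p = 0.0069), but lost its call without U251 (0.14, adjusted p = 0.146) and gave -0.12 without shared probe sets (adjusted p = 0.144) and 0.06 with the mean of its probe sets (0.35). RAB39B, a neuronal RAB, rose by 0.17 ± 0.05 (adjusted p = 0.00669). Its call was lost without U87 (adjusted p = 0.0622), with the mean of its probe sets (0.0709) or with a constant of 1 in place of 16 (0.317). Its arrays read only 0.2 to 1.6 units in MDA231 and 0.2 to 4.8 in MDA435, with differences of -0.01 and -0.08, so these lines inform little on it. The 6 others lay between 0.01 and 0.15 and did not pass: RAB42 at 0.15 ± 0.12, RAB38 at 0.08 ± 0.13, RAB39A at 0.08 ± 0.09, RAB9B at 0.07 ± 0.09, RAB24 at 0.03 ± 0.07 and RAB7B at 0.01 ± 0.08.

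RABs of regulated secretion showed 2 of 8 higher and 0 lower (median 0.20), and 25% is below the 29.5% of all genes called higher. RAB27A, which docks secretory lysosomes and melanosomes, rose by 0.31 ± 0.08 log2 units (adjusted p = 0.00197), and its 5 tested probe sets were all called higher. RAB3A, the synaptic vesicle RAB, was called at 0.24 ± 0.10 (adjusted p = 0.0427), but its probe set averaged 12.6 units. It passed the filter on dim genes only through the MDA435 PS group, while no CB group mean exceeded 15.8, so it had to differ and the call supports nothing. Without the filter the adjusted p was 0.0527, and the call was lost in 20 of 41 fits that left out 1 array or 1 line. RAB27B and RAB3B had 0.28 ± 0.17 and 0.26 ± 0.13, with adjusted p of 0.169 and 0.0939 over arrays and 0.00724 and 0.0459 over lines. Of the other 4 tested probe sets of RAB3B, 3 were called higher over arrays, at 0.25 ± 0.11, 0.41 ± 0.11 and 0.32 ± 0.09. RAB3D and RAB3C had 0.16 ± 0.10 and 0.02 ± 0.08. RAB37 and RAB26, of mast cell and secretory granules, had -0.06 ± 0.12 and -0.14 ± 0.06. RAB26 was lower in PS in 5 of 6 lines (adjusted p = 0.0725), was called lower with array weights at -0.19 (adjusted p = 0.00508), and was called lower in 5 of the fits that left out 1 array or line.

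Of the remaining 4 tested, 2 (50%) rose and 0 fell (median 0.19), against 29.5% of all genes called higher. Among genes with a mean of at least 100 units, 42.5% were higher. RAB40B, a RAB with a SOCS box that recruits a ubiquitin ligase and is tied to protease secretion at invadopodia, had the larger rise. In U87, RAB40B read 112, 84.2 and 95.7 in the pseudopod arrays, against 54.5, 64.4 and 88.8 in the cell body arrays. For U251, RAB40B read 358, 278 and 338 in the pseudopod arrays, against 197, 352 and 203 in the cell body arrays. HT1080 gave RAB40B values of 184, 133 and 121 in the pseudopod arrays, against 68.0, 74.2 and 106 in the cell body arrays. HT1080 was the one line of the 6 without overlap. In DU145, RAB40B read 91.4, 95.9 and 94.3 in the pseudopod arrays, against 82.4, 82.2 and 102 in the cell body arrays. MDA231 gave RAB40B values of 267, 231 and 82.6 in the pseudopod arrays, against 178, 63.2 and 113 in the cell body arrays. For MDA435, RAB40B read 111, 148 and 187 in the pseudopod arrays, against 129, 108 and 74.5 in the cell body arrays. The arrays of MDA231 spread widely, and DU145 differed by 0.07 ± 0.31 log2 units. The second tested probe set gave 0.64 ± 0.12. The averaged difference was 0.44 ± 0.12 log2 units, or 1.36-fold (adjusted p = 0.00373; with lines as units 0.0024). RAB28, a RAB of cilia, rose by 0.25 ± 0.05 (adjusted p = 9e-05) and did not overlap in 5 lines. With the mean of all its probe sets, RAB28 had 0.09 and lost its call (adjusted p = 0.0724). RAB40C had 0.13 ± 0.07 and RAB23, a negative regulator of hedgehog signalling, 0.03 ± 0.07. One of the other 2 tested probe sets of RAB23 was called higher at 0.30 ± 0.09.

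Within single lines, 0 to 5 RAB genes passed and none fell. In U87, 4 RAB genes (7.55%) rose and 0 fell, against 11.7% and 11.8% of all genes. The share that rose was thus below that of all genes. RAB11A (0.61 ± 0.13), RAB28 (0.42 ± 0.12) and RAB39B (0.36 ± 0.13) did not overlap there, and RAB4A did. In 41 fits that left out 1 array or line, RAB4A lost its U87 call in 17, RAB39B in 7 and RAB28 in 2. U251 had 5 higher (9.43%) and 0 lower, against 5.36% and 9.33%. They were RAB22A (0.75 ± 0.21), RAB1B (0.72 ± 0.18), RAB32 (0.69 ± 0.17), RAB11A (0.51 ± 0.13) and RAB7A (0.44 ± 0.15). Of 41 such fits, RAB7A lost its U251 call in 15, RAB22A in 3 and RAB32 in 1. RAB32 in U251 read 674, 783 and 539 in the pseudopod arrays, against 397, 405 and 405 in the cell body arrays. HT1080 had 5 higher (9.43%) and 0 lower, against 12.8% and 12%, so its share of rises was also below that of all genes. They were RAB4A (0.82 ± 0.26), RAB1B (0.55 ± 0.18), RAB11A (0.51 ± 0.13), RAB7A (0.42 ± 0.15) and RAB29 (0.41 ± 0.13). RAB7A lost its HT1080 call in 6 of 41 such fits, RAB4A and RAB1B in 3 each and RAB29 in 2. RAB11A kept its calls in U87, U251 and HT1080 in every such fit. MDA435 had 2 higher (3.77%) and 0 lower, against 2.96% and 8.81%, near the share of all genes for rises. RAB33B in MDA435 read 199, 179 and 149 in the pseudopod arrays, against 83.9, 117 and 124 in the cell body arrays, a difference of 0.63 ± 0.16 (adjusted p = 0.00609). RAB14 read 736, 808 and 870.1 in the pseudopod arrays, against 660.0, 582 and 488 in the cell body arrays, a difference of 0.48 ± 0.15 (adjusted p = 0.0294). Of 41 such fits, RAB33B lost its MDA435 call in 1 (limma adjusted p = 0.0663) and RAB14 in 4 (up to 0.163). The difference of RAB33B was smallest, at 0.48, without CB array 1, which departs in CDH1.

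DU145 and MDA231 had no RAB gene past the test. For DU145, all genes reached 0.825% higher and 2.16% lower, and for MDA231 1.18% and 4.9% in limma. At an unadjusted p under 0.05, DU145 had 3 RAB genes higher and 1 lower (8.81% and 9.36% of all genes). MDA231 had 10 higher and 1 lower at that level (8.58% and 12.8%). The other lines had 12 higher in U87 (17.7%), 9 in U251 (13.7%), 14 in HT1080 (20.3%) and 12 in MDA435 (10.8%) at that level. None was lower there, against 15.4%, 13.3%, 14.8% and 13% of all genes in U87, U251, HT1080 and MDA435. As shares of the 53, the rises were 5.66% in DU145 and 18.9% in MDA231. For U87, U251, HT1080 and MDA435 they were 22.6%, 17%, 26.4% and 22.6%. Without the arrays that depart in CDH1, 3 rose in MDA231, against 1.59% of all genes, and 4 in MDA435, against 1.85%.

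The order of the arrays was also counted. All 3 PS arrays lay above all 3 CB arrays for 14 RAB genes in U87 (17% of all genes), 20 in U251 (22%) and 20 in HT1080 (29.5%). The counts were 9 in DU145 (16.7%), 8 in MDA231 (9.11%) and 11 in MDA435 (12.3%). As shares of the 53 these are 26.4%, 37.7% and 37.7%, then 17%, 15.1% and 20.8%, so DU145 was at its background. All 3 PS arrays lay below all 3 CB arrays for 1 RAB gene in U87 (14.3% of all genes), 2 in DU145 (14.9%) and 2 in MDA231 (11.9%). None did so in U251 (16.9%), HT1080 (18.4%) or MDA435 (12.3%). A call in 1 line and not in another is no difference between them. The F test of the difference between lines called 0 RAB genes at an adjusted p and 0 at an unadjusted p under 0.05, against 1.18% and 10% of all genes. RAB4B and RAB32 came highest, with adjusted p of 0.519 and 0.59.

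Near relatives did not always move alike. Over 20 pairs of RAB genes with the same number and another letter, the difference of their averaged changes was tested by permuting PS and CB within lines (100000 resamples, two-sided, adjusted over the pairs), a comparison chosen after the data were seen. RAB11A exceeded RAB11B by 0.55 log2 units, in 5 of 6 lines (permutation adjusted p = 0.0149). RAB1B exceeded RAB1A by 0.34 in 6 of 6 lines (RAB1A minus RAB1B = -0.34, permutation adjusted p = 0.0149). That pair was set on 1 probe set each, and the RAB1A probe set at 0.29 ± 0.08 lies closer to the 0.48 of RAB1B. RAB7A exceeded RAB7B by 0.33 (0.0149) and RAB9A exceeded RAB9B by 0.28 (permutation adjusted p = 0.037), each in 6 of 6 lines. Without shared probe sets RAB7A had -0.041 and RAB7B 0.01, so the order of that pair turned. The probe sets of RAB11B, RAB7B and RAB9B averaged 43.2, 59.5 and 56.5 units, where the added constant of 16 shrinks a difference, and the part of this in the result was not tested. RAB1A and RAB1B averaged 3892 and 983 units, so both are bright. The other 16 pairs did not pass; RAB27A minus RAB27B was 0.04, and RAB4A minus RAB4B was 0.44 with 3 lines on each side (permutation adjusted p = 0.131).

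Over all probe sets of the family that could be tested, 61 of 121 were higher and 4 lower, against 27.2% and 23% of 28957 probe sets with 1 symbol. Besides the dim pair of RAB18, those lower were 1 of RAB12 at -0.92 ± 0.09 and 1 of RAB30 at -0.17 ± 0.07. The RAB12 probe set averaged 34.5 units, while the 2 brighter ones of RAB12 gave 0.09 ± 0.15 and 0.25 ± 0.26. Among 17 risers with more than 1 tested probe set, 13 had all of them on the same side.

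**Figure D3:**
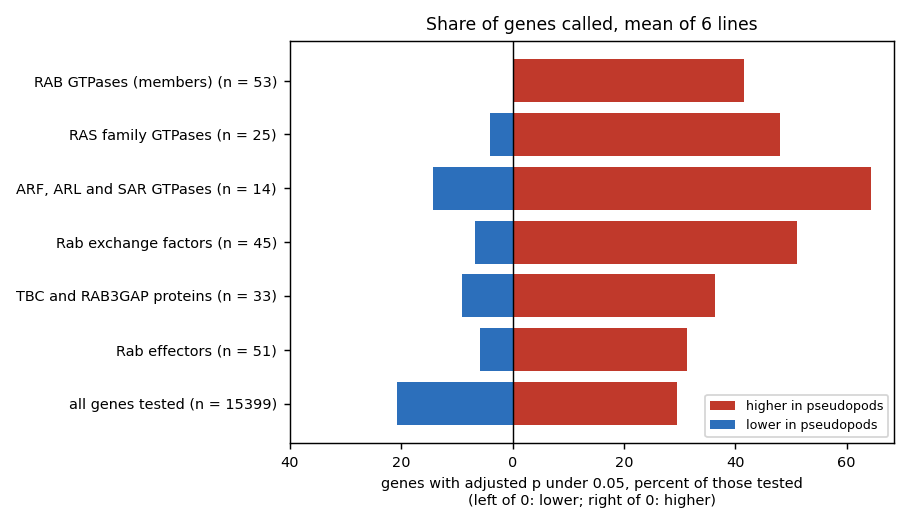
Percent of genes with an adjusted p under 0.05 for the averaged PS minus CB difference, higher to the right of 0 and lower to the left, for RAB GTPases, RAS and ARF family GTPases, RAB partners and all genes tested. RAB genes reached 41.5% higher and 0 lower, and all genes 29.5% and 20.8%.

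Proteins that load, stop or follow RABs were counted beside them. Among exchange factors, 23 of 45 (51.1%) were higher and 3 (6.67%) lower, against 29.5% and 20.8% of all genes. TRAPPC1 and TRAPPC5, subunits of the TRAPP complex that activates RAB1, rose by 0.68 ± 0.07 and 0.56 ± 0.09 log2 units, and RABGEF1, which activates RAB5, by 0.62 ± 0.09. DENND4C, an activator of RAB10, fell with -0.35 ± 0.09, DENND2C with -0.20 ± 0.08 and TRAPPC8 with -0.12 ± 0.05. GTPase-activating proteins showed 12 of 33 (36.4%) higher and 3 (9.09%) lower. TBC1D1, TBC1D7 and EVI5L rose by 0.44 ± 0.06, 0.42 ± 0.10 and 0.41 ± 0.14, and TBC1D8B, SGSM2 and RABGAP1 had -0.34 ± 0.08, -0.20 ± 0.07 and -0.16 ± 0.06. Effectors had 16 of 51 higher and 3 lower, which for rises is 31.4%, near the background. MICALL1 of recycling endosomes rose by 0.66 ± 0.10, OPTN, a RAB8 effector, by 0.60 ± 0.12 and RPH3AL by 0.45 ± 0.17. EEA1, the early endosome tether bound by RAB5, fell with -0.75 ± 0.08, WDR44, a RAB11 effector, with -0.48 ± 0.09, and the Golgin GCC2 with -0.16 ± 0.07. Of 6 genes of RAB prenylation and membrane recycling, RABIF rose by 0.40 ± 0.06 and RABGGTA, a subunit of RAB geranylgeranyl transferase, by 0.25 ± 0.07, while RABAC1 fell with -0.49 ± 0.07.

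The RAS and ARF families of small GTPases leaned the same way. RAS family genes had 12 of 25 higher and 1 lower, with HRAS at 0.73 ± 0.10, RRAS at 0.67 ± 0.11, RAP1A at 0.52 ± 0.06 and REM2 at -0.33 ± 0.10. The ARF, ARL and SAR genes had 9 of 14 higher and 2 lower, with ARF5 at 0.60 ± 0.06, ARL2 at 0.47 ± 0.07 and ARL3 at 0.40 ± 0.08, against SAR1B at -0.18 ± 0.07 and ARF1 at -0.64 ± 0.13, the last on a probe set with a mean of 28.1 units. The median was 0.15 log2 units for the RAS family and 0.23 for the ARF, ARL and SAR genes, beside 0.16 for the RAB genes. The differences between families were not tested.

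RAB genes varied widely in level between the lines, as genes did in general. The level of 50 of 53 differed in at least 1 line from the mean of the other 5, as it did for 92.4% of all genes. In U87, 18 RAB genes were higher and 18 lower, against 24.6% and 33.8% of all genes. U251 had 14 and 16 (25.8% and 31.6%), and HT1080 had 16 and 12 (24.5% and 26%). DU145 had 15 and 14 (28.2% and 27.6%), MDA231 had 9 and 14 (27.6% and 25.7%) and MDA435 had 20 and 16 (30.3% and 27.1%). As shares of the 53, these ran from 17% (higher in MDA231) to 37.7% (higher in MDA435). Line values below are mean ± SD over 6 arrays, 3 of each fraction.

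**Figure D4:**
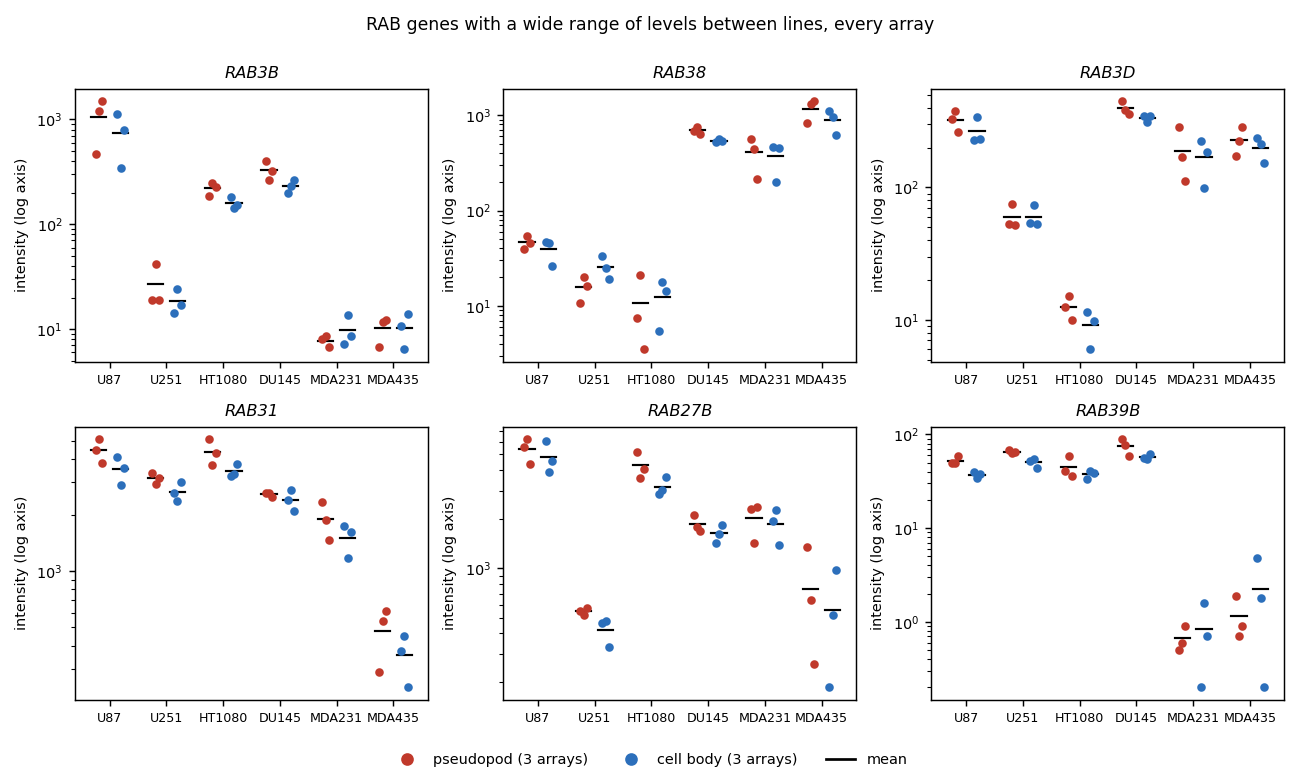
Intensity (log axis) of 6 RAB genes in every array by line, PS left of CB; bars mark the mean of 3 arrays. RAB3B is highest in U87, RAB38 is high in DU145, MDA231 and MDA435, and RAB31 is lowest in MDA435.

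RAB3B, a RAB of regulated exocytosis, stood furthest above its next line. It read 903 ± 446 units in U87, 280.0 ± 72.7 in DU145 and 190.0 ± 41.7 in HT1080. U251 read 22.5 ± 10.0, MDA435 10.3 ± 3.06 and MDA231 8.78 ± 2.52. U87 was 3.59 ± 0.17 log2 units above the other lines (adjusted p = 5.82e-17), although its lowest array, at 346, overlapped the highest of DU145 at 400.5. The 3 high lines did not overlap the 3 low ones, and MDA435 and MDA231 did not differ beyond their spread. RAB7B was also highest in U87, at 143 ± 55.7 units against 62.4 ± 8.21 in U251, without overlap. RAB30 was highest in MDA435, at 284 ± 85.7 against 125 ± 17.1 in DU145, and RAB42 in DU145, at 83.1 ± 16.6 against 44.4 ± 2.54 in MDA231, both without overlap. RAB37 was highest in MDA231 at 57.1 ± 38.1, where single arrays ran from 20.2 to 123 and overlapped HT1080.

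A further 5 RAB genes with wide ranges were chosen after their values were seen. RAB38, which with RAB32 brings enzymes to melanosomes, read 1035 ± 295 in MDA435, 617 ± 90.5 in DU145 and 390.4 ± 149 in MDA231. In U87, U251 and HT1080 it read 43.0 ± 9.46, 20.7 ± 7.72 and 11.6 ± 7.21, with no overlap between these lines and the others. Melanocyte markers, 10 genes summed, were 4812 to 9694 units in MDA435. Their sums were 783.6 to 943.3 in DU145 and 564.8 to 737.3 in MDA231, against 260.1 to 424.4 in U87, U251 and HT1080. A link between RAB38 and these markers was not tested. RAB31 ran the other way: it read 418 ± 144 in MDA435, -2.78 ± 0.12 log2 units from the other lines (adjusted p = 1.23e-17). The other lines had 3967 ± 752 in U87, 3901 ± 691 in HT1080, 2904 ± 360.2 in U251, 2492 ± 217 in DU145 and 1703 ± 393 in MDA231. RAB3D read 10.8 ± 3.07 in HT1080, -2.94 ± 0.14 from the others (adjusted p = 5.28e-17), and 60.3 ± 11.3 in U251, while DU145 was highest at 366 ± 46.4. RAB27B read 5103 ± 968 in U87 and 3728 ± 838 in HT1080, but 654 ± 443 in MDA435 and 484 ± 87.4 in U251. RAB39B read 0.75 ± 0.48 in MDA231 and 1.72 ± 1.65 in MDA435, while the other 4 lines averaged 41.6 to 66.3.

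RAB3B, RAB38, RAB3D and RAB31 had the largest log2 differences in level between a line and the others, and the start regions of those with an entry are shown (RefSeq, GRCh38.p14, 250 bases before to 50 after the start, 5′ to 3′ on the gene's strand). Capitals mark GGGCGG or its reverse complement CCGCCC (GC box) and CACGTG (E-box), searched on both strands. The table used held no entry for RAB38. RAB3B lies at chr1:51990651-51990950 on the minus strand, RAB3D at chr19:11339608-11339907 on the minus strand and RAB31 at chr18:9708051-9708350 on the plus strand.
RAB3B: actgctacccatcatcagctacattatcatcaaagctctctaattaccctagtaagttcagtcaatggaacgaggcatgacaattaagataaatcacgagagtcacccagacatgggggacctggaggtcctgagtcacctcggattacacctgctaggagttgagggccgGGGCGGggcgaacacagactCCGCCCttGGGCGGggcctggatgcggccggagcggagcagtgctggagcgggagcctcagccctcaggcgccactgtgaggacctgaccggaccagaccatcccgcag
RAB3D: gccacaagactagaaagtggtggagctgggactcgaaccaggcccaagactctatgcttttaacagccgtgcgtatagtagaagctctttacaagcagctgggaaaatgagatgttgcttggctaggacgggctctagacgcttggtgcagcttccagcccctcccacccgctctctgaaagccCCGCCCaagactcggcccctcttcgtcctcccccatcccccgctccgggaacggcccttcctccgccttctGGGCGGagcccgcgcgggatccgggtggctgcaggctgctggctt
RAB31: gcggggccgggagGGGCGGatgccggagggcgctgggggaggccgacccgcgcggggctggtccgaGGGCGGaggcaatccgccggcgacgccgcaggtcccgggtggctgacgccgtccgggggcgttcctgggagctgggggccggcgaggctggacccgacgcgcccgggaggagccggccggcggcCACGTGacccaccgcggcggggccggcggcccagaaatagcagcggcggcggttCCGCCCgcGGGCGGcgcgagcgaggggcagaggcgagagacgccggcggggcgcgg
The GC box occurred 3 times at RAB3B, 2 times at RAB3D and 4 times at RAB31, and the E-box once, at RAB31. None held TATAAA or TCATGTG on either strand. Over 35093 promoters of the same length, 44.9% held a GC box, 7.26% an E-box, 11.5% TATAAA and 2.92% TCATGTG. Of the 55 RAB genes, 43 had an entry, and 36 of these held a GC box, 6 an E-box, 2 TATAAA and 1 TCATGTG. The RAB counts take 1 promoter per gene, while the 35093 hold every distinct promoter of a gene. The sets are thus unlike, and a difference between them was not tested. All matches are letter matches only.

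**Figure D5:**
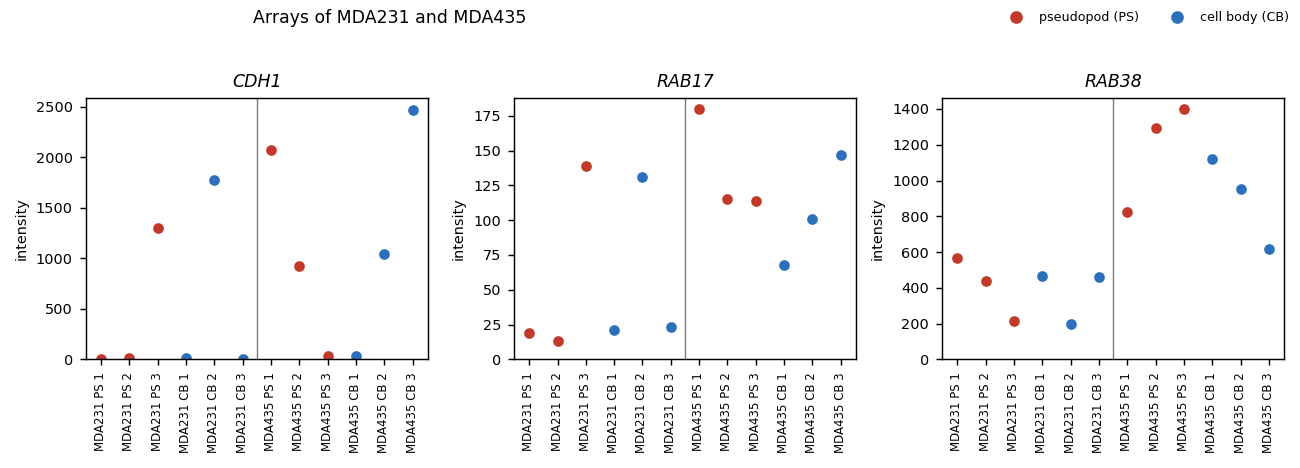
Intensity (linear axis) of CDH1, RAB17 and RAB38 in each array of MDA231 and MDA435, PS left of CB. In MDA231 the arrays PS 3 and CB 2 are high for CDH1 and RAB17 and low for RAB38.

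The arrays of MDA231 that depart in CDH1 also departed in some RAB genes, which were chosen after their values were seen. RAB17, an epithelial RAB, read 19.1, 13.3 and 139 in the pseudopod arrays, against 21.1, 131 and 23.5 in the cell body arrays. These values are from MDA231. The PS array 3 and the CB array 2 were high in both genes and the other 4 arrays low. RAB38 in MDA231 read 566, 440.4 and 215 in the pseudopod arrays, against 465, 199 and 458 in the cell body arrays, lowest in the same pair of arrays. RAB22A, RAB1B and RAB40B, among the largest rises above, also had their lowest MDA231 values in that pair. In MDA435, RAB17 read 179.6, 115 and 114 in the pseudopod arrays, against 68.0, 101 and 147 in the cell body arrays, with its lowest value in the CB array 1, which is also low in CDH1, while PS arrays 2 and 3 read alike. In MDA231, where 1 such array lay in each fraction, the difference between fractions was -0.15 ± 0.41 for RAB17 and 0.11 ± 0.31 for RAB38, both within their error.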

How the data were processed

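Total RNA of 36 fractions was hybridised to Affymetrix HG-U133 Plus 2.0 arrays, per the labels' protocols after 2 rounds of oligo(dT) labelling from 100 ng. The deposited table holds 1 linear intensity per probe set and array; RMA and Partek are named, per the submitters' processing notes, with no role or version, and the deposited values, with 2% trimmed means of 149.18 to 149.59 on every array, are not on RMA's log2 scale. Steps before deposit are otherwise not given in the sources used here. Of 54593 probe sets, 41074 carry 1 symbol in GEO's platform annotation, 1798 several and 11721 none. For 41020 of those with 1 symbol, the Entrez number was found in RefSeq and the RefSeq symbol was used, whether or not it differed. It differed for 0 probe sets of the RAB genes.

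Values became log2(intensity + 16), so fold changes are on that scale and understate changes of dim genes. A gene was its probe set with the highest mean, kept if a group mean reached 24.4 (15399 genes). limma 3.58.1 (R 4.3.3) fitted 12 group means (24 residual degrees of freedom, lmFit and eBayes), with contrasts averaged over lines, per line, between lines (F test), and of each line's level against the other 5. In another fit the units were the 6 differences between fractions, 1 per line. Benjamini-Hochberg adjustment ran over all genes, and called means adjusted p under 0.05. The fit was tested on simulated data. Member and gene lists were chosen with earlier results of these data known. Named are the members with the 5 largest called rises (all arrays), all other members by their change, members called without overlap in a line, the 5 whose highest line stands most above the next, and up to 3 called genes each way per other list. One further gene list is not reported here. Alternatives were the constant, filter, normalization, probe set, array weights, replicate block, and leaving out arrays or lines. Precision is limited by the number of arrays, by what separates arrays of a group, and for dim genes by the constant of 16.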

Additional observations from a re-analysis of the deposited data

Results flagged for a closer look

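For 2 RAB genes, all 3 PS arrays lay above all 3 CB arrays in 1 line and below them in another, which held for 2.97% of all genes tested. RAB3C read 28.4, 19.1 and 24.3 in PS of U251, against 14.8, 12.9 and 12.7 in CB, a difference of 0.43 log2 units, while its difference in MDA231 was -0.36. RAB42 differed by 0.34 in U251 and 0.61 in HT1080, and by -0.10 in MDA231. The difference between these pairs of lines was not tested. The limma F test over the 6 lines gave an adjusted p of 0.678 for RAB3C and 0.873 for RAB42. Both probe sets are dim, with means of 22.0 and 38.2 intensity units.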

How the results depend on the processing

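Averaged over lines, 15 (without probe sets marked as shared) to 32 RAB genes (equal array medians) were higher under the alternatives. One was lower with array weights (RAB26) and 1 without a filter (RAB6A, -0.18). With equal array medians, 41.1% of all genes were higher. Most other settings below have no share of all genes beside them, and such counts are no result about RAB genes. Without shared probe sets, the risers RAB1B, RAB14, RAB27A, RAB31 and RAB33B had no probe set left and were not tested. This lowers each count given for that setting. RAB14 and RAB33B are the genes called in MDA435 above. Of 256 values for named genes, 242 kept direction and call, 11 lost the call and 3 reversed: RAB18 with the mean of all probe sets (-0.018), and RAB32 (-0.12) and RAB7A (-0.041) without shared probe sets. Within lines, 162 of 185 kept both, 22 lost the call, and RAB7A in HT1080 reversed without shared probe sets (-0.13). With lines as units, 35 were higher with equal array medians, 14 without shared probe sets, and 1 was lower without a filter (RAB6A). Array weights made the F test call 2 (RAB3A and RAB5C). They gave 3 higher and 2 lower in DU145, 14 higher in HT1080 and 12 in MDA231. MDA435 had 16 higher and 1 lower, U251 had 9 higher and U87 had 8. The share of all genes called with array weights is not given, so these counts have no background here. In HT1080, 9 were higher with a filter at 100, 10 with the mean of probe sets, 3 without shared ones, 1 with the replicate block, 12 without MDA231 and MDA435 and 11 without the 4 arrays that depart in CDH1. In MDA231, 1 was higher with equal medians, 1 with the mean of probe sets and 3 without the 4 arrays. In MDA435, 4 were higher with a filter at 100, 4 with the mean of probe sets, 4 with a constant of 64, 4 without the 4 arrays, 1 with the block and 0 without shared probe sets. In U251, 2 were higher without shared probe sets and 3 with the block. In U87, 7 were higher with the mean of probe sets, 2 with a constant of 1, 7 with 64, 2 with the block, 10 without MDA231 and MDA435 and 8 without the 4 arrays. Without the 4 arrays, 15.8% of all genes were higher in HT1080 and 14.3% in U87. The cause of these changes in count was not tested. Leaving out 1 array or line gave 19 to 26 higher and 0 to 1 lower on average, 18 to 25 higher with lines as units, and 144 to 187 level calls. Within lines it gave 2 to 11 higher in HT1080, 0 to 7 in MDA231 (7 without PS replicate 3), 1 to 6 in MDA435, 2 to 5 in U251 and 1 to 8 in U87, where 0 to 2 were lower. Replicate numbers did not pair the arrays: 4 of 18 pairs had a correlation over 0.1 (range -0.778 to 0.688), 3 correlated best with their own number, and the replicate block left 21 higher on average. Dim probe sets limit RAB3A, RAB4B, RAB3C, RAB33A and RAB37, and RAB39B in MDA231 and MDA435.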
